A study of Mus musculus with 12 samples.

Results

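The genes described here are 9 members of the BCL2 family, the proteins that decide whether a cell dies by the mitochondrial route. They were chosen by symbol, as the entries of the expression files named *Bcl2*, *Bcl2l1*, *Mcl1*, *Bcl2a1b*, *Bax*, *Bak1*, *Bcl2l11*, *Bbc3* and *Bid*, and all 9 were found among the 24421 genes listed in every file. Their mRNA was measured by RNA-seq in bone marrow-derived macrophages (BMMs), the precursors of osteoclasts, grown with M-CSF for 3 days and then kept with or without RANKL for 5 days. In the loss of function experiment WT cells (*Mir182*+/+LysMcre(+)) were set against *Mir182*ΔM/ΔM cells (*Mir182*flox/floxLysMcre(+)), each at baseline and after RANKL. In the gain of function experiment Control cells (LysMcre(+)) were set against *Mir182*mTg cells (LSL-*Mir182*LysMcre(+)), both at baseline, in which a *Mir182* cDNA placed in *Rosa26* behind a floxed STOP cassette is expressed. Each of the 6 conditions had 2 replicates, which the methods call biological, giving 12 libraries in all. The labels give C57BL/6 as the strain of all samples, and the methods name littermates as controls and matching for age, which the sources used here do not give. By the stated genotypes every group carried LysMcre, a Cre recombinase driven by the lysozyme M promoter and thus active in myeloid cells. Groups without Cre were therefore not described, and whether each library carried Cre was not tested here.

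Members of the BCL2 family fall into groups by role. Guardians such as BCL2, BCL-XL (from *Bcl2l1*), MCL1 and A1 (from *Bcl2a1b*) hold the mitochondrial outer membrane intact, and the effectors BAX and BAK (from *Bak1*) open it once they are set free. BH3-only proteins such as BIM (from *Bcl2l11*), PUMA (from *Bbc3*) and BID sense stress and bind the guardians or switch on the effectors. In the osteoclast lineage BIM is known to set the lifespan of mature osteoclasts, and M-CSF is known to maintain survival through this family.

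The experiments alter miR-182, a microRNA that lowers mRNAs carrying a match to its seed, and the sequences are shown because they tell which members could pair with it. The mature miRNA mmu-miR-182-5p lies at chr6:30165962-30165986 on the minus strand of GRCm38.p6, as given by RefSeq. The seed, bases 2 to 8, is in capitals.
mmu-miR-182-5p: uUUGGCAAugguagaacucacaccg
Seed matches were searched on the sense strand of all annotated 3′ UTRs of GENCODE vM21, as the letters TTGCCAA (7mer-m8), TGCCAAA (7mer-A1) and TTGCCAAA (8mer), of which the last holds both shorter ones. Of the 9 members, 3 had a match, namely *Bcl2* and *Bcl2l11* with 2 each and *Mcl1* with 1. The matches are printed with the upstream bases in lower case and the seed match in capitals, at GRCm38 positions of the capitals.
Bcl2 7mer-m8, chr1:106542951-106542957, minus strand: aaccgaaccaggaaTTGCCAA
Bcl2 7mer-A1, chr1:106543058-106543064, minus strand: aatcagctatttacTGCCAAA
Bcl2l11 8mer, chr2:128131439-128131446, plus strand: ttggggggatcaacTTGCCAAA
Bcl2l11 7mer-m8, chr2:128161854-128161860, plus strand: tgtttctagagcatTTGCCAA
Mcl1 7mer-m8, chr3:95661945-95661951, plus strand: ttgtctactaaggaTTGCCAA
The *Bcl2l11* matches lay in different 3′ UTRs of that gene, one of 1797 and one of 4218 bases, so a transcript carries one or the other. Among the 19506 genes of the files with an annotated 3′ UTR, 18.6% held any of these matches, 11.5% a 7mer-m8, 12.9% a 7mer-A1 and 4.63% an 8mer. The 3 members with a match had the longest 3′ UTRs of the family, of 5086 bases for *Bcl2*, 4218 for *Bcl2l11* and 2353 for *Mcl1*, and that of *Bcl2a1b*, with 147 bases, was the shortest. A match is a description of letters, and binding was not measured.

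Libraries held 24951280 to 33050619 reads on genes, and a value of 3 reads corresponded to 0.0908 to 0.120 CPM (counts per 1000000 reads on genes). Both WT RANKL libraries differed from the remaining loss of function libraries in the 2 genes looked at as sample checks. These genes were chosen because an earlier report of these data gave them as setting the WT RANKL libraries apart. Their difference was thus known beforehand. Other genes were not searched for such differences. *Lyz2*, the gene of lysozyme M, was at 4117 and 4288 CPM there against 22.5 to 44.0 CPM in the other 6, and *Ifi202b*, an interferon-inducible gene, was at 1.12 and 0.97 CPM against 82.1 to 152 CPM. In both genes they resembled the Control and *Mir182*mTg libraries, which had 5783 to 7062 CPM of *Lyz2* and 0 to 0.0908 CPM of *Ifi202b*. Whether the WT RANKL libraries share the mice or the genetic background of the other loss of function libraries was not tested. The RANKL changes of the members in WT cells are therefore given also against Control at baseline. The genotype differences after RANKL and the interaction rest on the same WT RANKL libraries and are given without such a second value. *Mir182* itself was counted at 2.39 and 4.40 CPM in *Mir182*mTg BMMs and at 0 in all other libraries but 1 read in a *Mir182*ΔM/ΔM library, so its level checks the label of the transgene but not that of the deletion. Macrophage markers were present in every group (7 of 7 genes at 1 CPM or more), osteoclast markers summed to 9938 to 10274 CPM for WT after RANKL and to 3070 to 3079 CPM for *Mir182*ΔM/ΔM after RANKL, and the basal sums were 39.7 to 74.9 CPM. B cell, T and NK cell, erythroid, mast cell and megakaryocyte marker sums were at most 3.71 CPM in any library, those of dendritic cells at most 3.20 CPM, and those of stromal cells 1.57 to 33.1 CPM. Replicate 1 is labelled as polyA RNA and replicate 2 as total RNA throughout, while the protocols describe poly-A selection for all samples, and this disagreement was not resolved. *Rn45s*, the ribosomal precursor RNA, was at 742 to 1176 CPM in replicate 1 and 9778 to 21273 CPM in replicate 2, so values within each replicate number are given beside the pooled ones. In bulk RNA, fewer cells that express a gene and less RNA per cell cannot be told apart.

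Per length of transcript, *Mcl1* and *Bax* were the most abundant members in every condition and *Bcl2* the least. The scale here is RPKM, the CPM per kilobase of gene length. In WT cells at baseline the RPKM level was 226.5 for *Bax*, 178.5 for *Mcl1*, 78.9 for *Bak1*, 48.3 for *Bcl2l1*, 41.9 for *Bid*, 22.9 for *Bcl2a1b*, 11.3 for *Bcl2l11*, 9.02 for *Bbc3* and 3.30 for *Bcl2*. After RANKL *Mcl1* stood above *Bax* in each of the 4 libraries, at 241.5 to 261.5 against 164.5 to 205.2 RPKM. At baseline *Bax* stood above *Mcl1* in each of the 8 libraries. The RPKM of the 9 members added up to between 592 and 634 in all 12 libraries. The mixture within that sum differed, since *Mcl1* made up 36.2 to 47.2% of the members' CPM at baseline and 58.5 to 60.3% after RANKL.

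**Figure D1:**
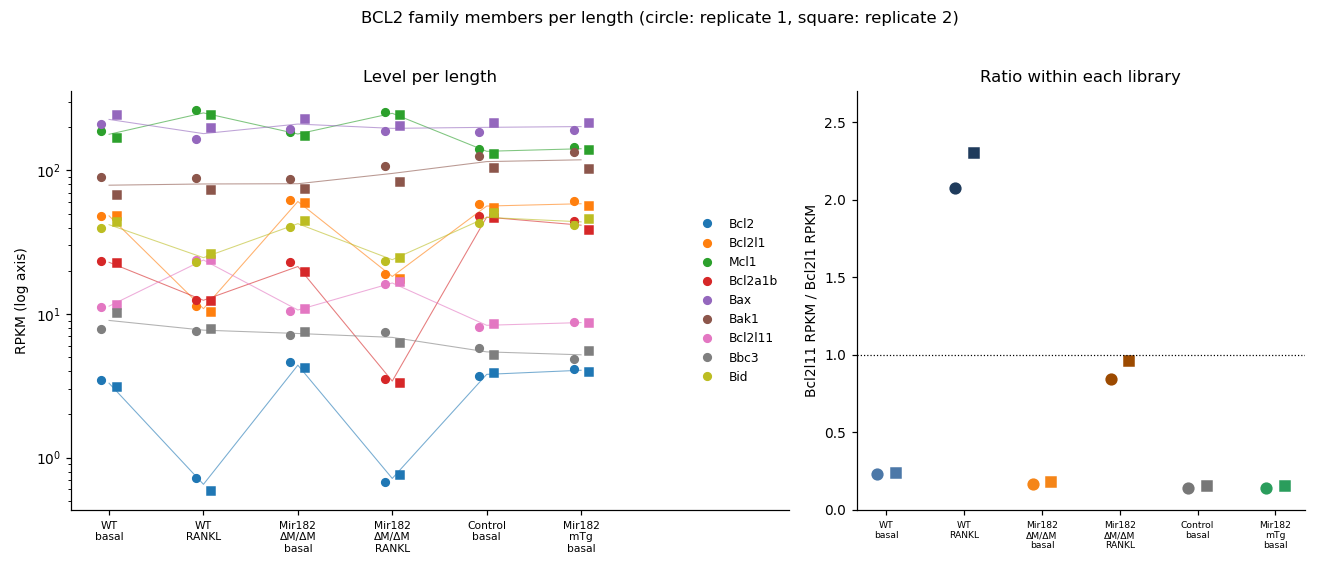
Left, RPKM of each BCL2 family member (log axis) in the 6 conditions, with replicate 1 as circles, replicate 2 as squares and thin lines through the means as a guide for the eye only. Right, the RPKM of *Bcl2l11* divided by that of *Bcl2l1* within each library, at 0.139 to 0.238 in basal libraries, 0.847 and 0.960 in *Mir182*ΔM/ΔM and 2.08 and 2.30 in WT cells after RANKL (dotted line at 1).

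The first comparison asked how osteoclast differentiation changed the family in WT and *Mir182*ΔM/ΔM cells. Among the guardians, *Bcl2* and *Bcl2l1* fell several-fold in both genotypes, *Bcl2a1b* fell in both, and *Mcl1* rose in both. Tests were made with limma on log2(CPM + 1) in one fit of the 8 loss of function libraries, with p-values adjusted by the Benjamini-Hochberg method over 11691 genes and a threshold of 0.05. These p-values measure the spread between 2 libraries a group. Log2 differences are on the log2(CPM + 1) scale, which understates the change of low genes.

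*Bcl2*, the founding guardian of the family, was at 26.9 and 24.1 CPM in WT cells at baseline and at 5.55 and 4.53 CPM after RANKL. In *Mir182*ΔM/ΔM cells it stood at 35.6 and 32.6 CPM at baseline and 5.26 and 5.82 CPM after RANKL. Both RANKL groups lay well below both basal groups and overlapped each other. The log2 change was −2.14 (SE 0.12, limma adjusted p = 6.0e-06) in WT, or 5.06-fold lower, and −2.42 (SE 0.12, adjusted p = 4.4e-06) in *Mir182*ΔM/ΔM cells, or 6.15-fold lower. Within replicate numbers 1 and 2 it was −2.09 and −2.18 in WT and −2.55 and −2.30 in *Mir182*ΔM/ΔM cells. Set against Control at baseline (28.7 and 30.1 CPM), the WT RANKL libraries were lower by a log2 difference of −2.34.

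*Bcl2l1*, which encodes the guardian BCL-XL, was the most abundant per length of the guardians after *Mcl1* at baseline. Its CPM values were 154 and 154 in WT at baseline, 36.6 and 33.0 in WT after RANKL, 199 and 189 in *Mir182*ΔM/ΔM at baseline and 61.1 and 55.6 in *Mir182*ΔM/ΔM after RANKL. No pair of these 4 groups overlapped. It fell with RANKL by a log2 change of −2.12 (SE 0.08, limma adjusted p = 1.0e-06) in WT, or 4.43-fold, and −1.72 (SE 0.08, adjusted p = 3.5e-06) in *Mir182*ΔM/ΔM cells, or 3.33-fold. The values within replicate numbers 1 and 2 were −2.04 and −2.19 in WT and −1.69 and −1.75 in *Mir182*ΔM/ΔM cells, and the WT RANKL libraries stood at −2.34 against Control at baseline. The gene-level values do not separate the long and short transcripts of this gene.

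*Mcl1*, a guardian whose protein is known to turn over quickly, went the other way. It was at 654 and 591 CPM in WT at baseline and 912 and 842 CPM after RANKL, and at 648 and 602 CPM in *Mir182*ΔM/ΔM at baseline and 891 and 852 CPM after RANKL. The basal and RANKL groups did not overlap, and the genotypes overlapped within each state. The log2 change was 0.49 (SE 0.08, limma adjusted p = 0.00121) in WT and 0.48 (SE 0.08, adjusted p = 0.00164) in *Mir182*ΔM/ΔM cells, a rise of 1.41-fold and 1.39-fold. Within replicate numbers it was 0.48 and 0.51 in WT and 0.46 and 0.50 in *Mir182*ΔM/ΔM cells, and 0.89 for WT RANKL against Control.

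*Bcl2a1b*, one of the mouse copies of the guardian A1, was the member whose level differed most among conditions. It was at 17.8 and 17.2 CPM in WT at baseline and 9.58 and 9.46 CPM after RANKL, and at 17.7 and 15.0 CPM in *Mir182*ΔM/ΔM at baseline and 2.69 and 2.52 CPM after RANKL, the last made of 82 and 64 reads. The RANKL groups lay apart from each other and from both basal groups, which overlapped. It fell with RANKL by a log2 change of −0.81 (SE 0.10, limma adjusted p = 3.6e-04) in WT, or 1.84-fold, and −2.26 (SE 0.10, adjusted p = 3.0e-06) in *Mir182*ΔM/ΔM cells, or 6.28-fold. Values within replicate numbers were −0.83 and −0.80 in WT and −2.34 and −2.19 in *Mir182*ΔM/ΔM cells. Control cells held 36.7 and 35.5 CPM, so against that baseline the WT RANKL libraries were lower by −1.82. Its copies share sequence, since 57.6% of the 768 different 50-base words of its transcripts also occur in *Bcl2a1a*, *Bcl2a1c* or *Bcl2a1d*, so the split of reads among them is uncertain. The copies were low, with group means of 0.955 to 5.64 CPM for *Bcl2a1d*, 0.248 to 1.96 CPM for *Bcl2a1a* and at most 0.110 CPM for *Bcl2a1c*. On the annotation 49.1% of the exonic bases of *Bcl2a1b* are also shared with *Gm29094* on the same strand, which was not among the genes counted. The 7 neutrophil markers in the files moved in the same direction as *Bcl2a1b* with RANKL, summing to 64.4 to 66.0 CPM in WT at baseline, 13.9 to 15.0 CPM in WT after RANKL, 80.7 to 81.2 CPM in *Mir182*ΔM/ΔM at baseline and 4.73 to 5.63 CPM after RANKL. Across the experiments they did not, with a sum of 41.8 to 43.5 CPM in Control, where *Bcl2a1b* was highest. Of these markers *Retnlg* was at 0 in all 4 RANKL libraries, *S100a8*, *S100a9* and *Ltf* were at 1 CPM or more in both libraries of each RANKL group, and *Ly6g* was not analysed here. Their part in the *Bcl2a1b* values was not tested.

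**Figure D2:**
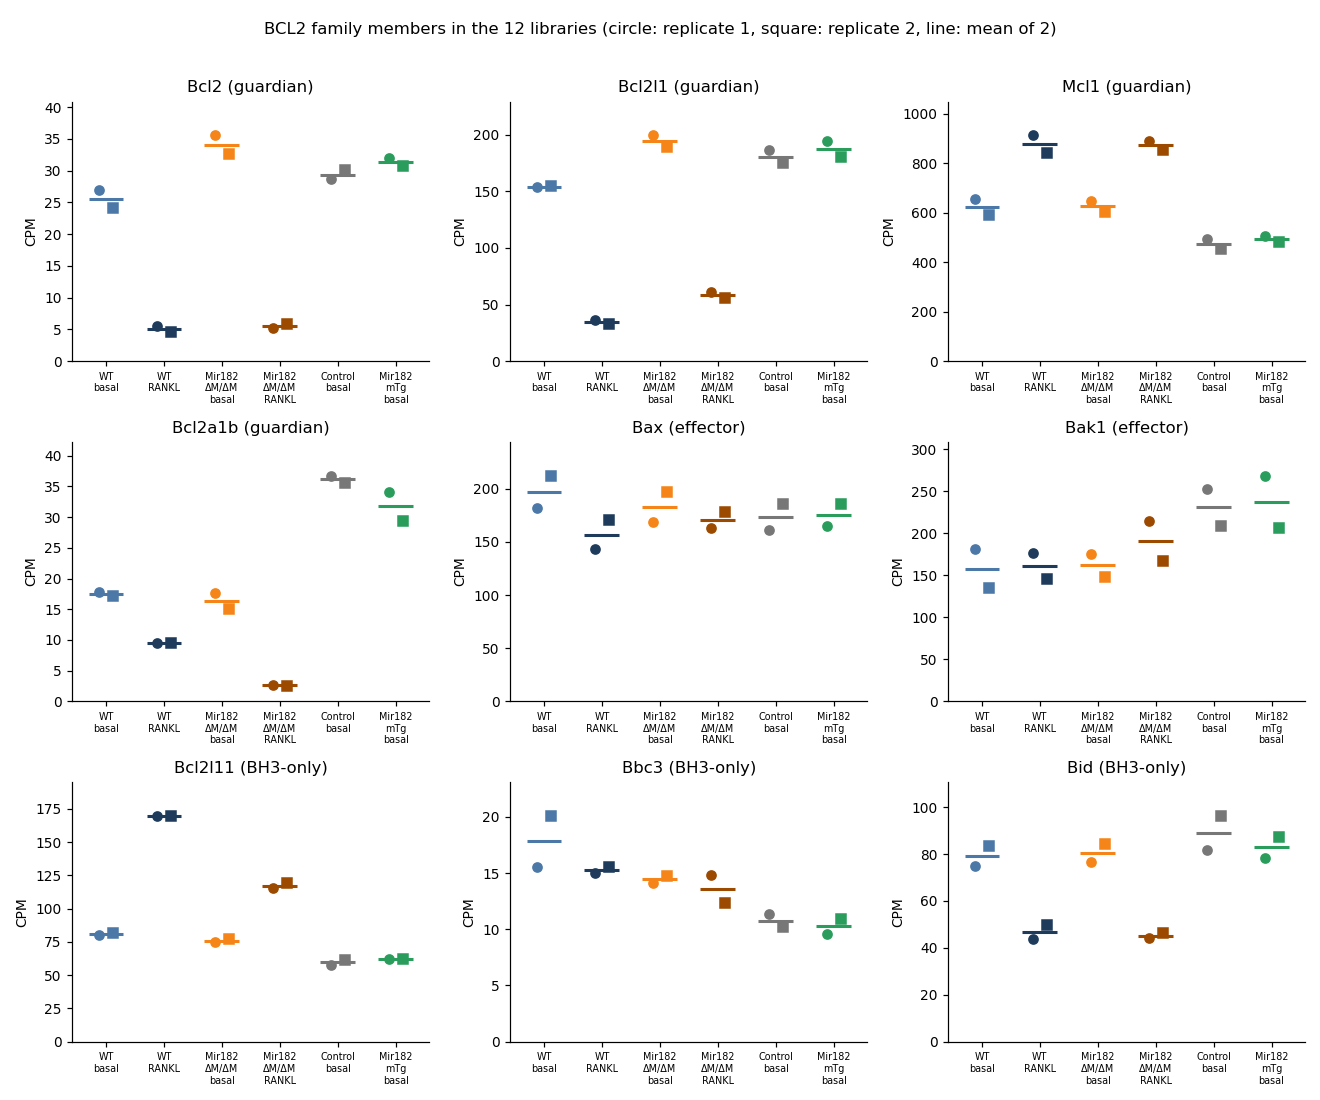
CPM of the 9 members in the 12 libraries, 1 panel a gene with its own axis from 0, with replicate 1 as circles, replicate 2 as squares and the mean of 2 as a line. *Bcl2*, *Bcl2l1*, *Bcl2a1b* and *Bid* are lower and *Mcl1* and *Bcl2l11* higher after RANKL, while the libraries of *Bax* and *Bak1* overlap between most conditions.

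Neither effector passed the test with RANKL in the model without the replicate block. *Bax* was at 181.6 and 212 CPM in WT at baseline, 143 and 171 CPM in WT after RANKL, 169 and 197 CPM in *Mir182*ΔM/ΔM at baseline and 163 and 178 CPM in *Mir182*ΔM/ΔM after RANKL. WT basal and WT RANKL libraries did not overlap and those of *Mir182*ΔM/ΔM cells did. Its log2 change with RANKL was −0.33 (SE 0.12, limma adjusted p = 0.0533) in WT, with −0.34 and −0.31 within replicate numbers, and −0.10 (SE 0.12, adjusted p = 0.538) in *Mir182*ΔM/ΔM cells. Replicate 2 was above replicate 1 in all 6 conditions, and once the replicate number entered the model as a block the change passed in both genotypes, with an adjusted p of 2.2e-08 in WT and 0.0162 in *Mir182*ΔM/ΔM cells. In WT it also passed without the first WT basal library (adjusted p = 0.0402) or the second WT RANKL library (adjusted p = 0.0329). *Bak1* was at 181 and 135 CPM in WT at baseline and 177 and 145 CPM after RANKL, and at 176 and 148 CPM in *Mir182*ΔM/ΔM at baseline and 214 and 167 CPM after RANKL, and the groups overlapped. Its log2 change was 0.04 (SE 0.19, limma adjusted p = 0.874) in WT, where it turned to −0.17 under TMM scaling, and 0.23 (SE 0.19, adjusted p = 0.320; 1.5e-05 with the block) in *Mir182*ΔM/ΔM cells. Against Control at baseline the WT RANKL libraries were at −0.15 for *Bax* and −0.52 for *Bak1*. On the annotation 25.5% of the exonic bases of *Bak1* are shared with *Ggnbp1* on the other strand, and the libraries do not mark strand, so its level may hold reads of that gene. *Bax* shares 12.2% of its exonic bases with *Gm45808* on the same strand, which was not among the genes counted.

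The BH3-only members did not move together. *Bcl2l11*, the gene of BIM, was at 79.9 and 81.9 CPM in WT at baseline and 169.6 and 169.8 CPM after RANKL, and at 74.9 and 77.3 CPM in *Mir182*ΔM/ΔM at baseline and 116 and 119 CPM after RANKL. The 4 groups lay apart from one another. It rose with RANKL by a log2 change of 1.06 (SE 0.06, limma adjusted p = 5.7e-06) in WT, or 2.10-fold, and 0.62 (SE 0.06, adjusted p = 9.9e-05) in *Mir182*ΔM/ΔM cells, or 1.54-fold, with 1.08 and 1.04, and 0.62 and 0.62, within replicate numbers. Against Control at baseline the WT RANKL libraries were at 1.50. *Bid*, which links death receptors to the mitochondria, was at 75.1 and 83.3 CPM in WT at baseline and 43.6 and 49.7 CPM after RANKL, and at 76.5 and 84.5 CPM in *Mir182*ΔM/ΔM at baseline and 44.1 and 46.2 CPM after RANKL. The basal and RANKL groups did not overlap, and the genotypes did. Its log2 change was −0.75 (SE 0.10, limma adjusted p = 3.9e-04) in WT and −0.82 (SE 0.10, adjusted p = 3.1e-04) in *Mir182*ΔM/ΔM cells, with −0.77 and −0.73, and −0.78 and −0.86, within replicate numbers and −0.92 for WT RANKL against Control. *Bid* shares 17.7% of its exonic bases with *Bcl2l13* on the other strand. *Bbc3*, the gene of PUMA, ranged from 12.3 to 20.1 CPM over the 8 loss of function libraries, with a log2 change of −0.20 (SE 0.14, limma adjusted p = 0.242) in WT and −0.09 (SE 0.14, adjusted p = 0.608) in *Mir182*ΔM/ΔM cells. For *Bbc3* the WT RANKL libraries were at 0.47 against Control, the opposite direction.

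In counts, 6 of the 9 members (66.7%) passed with RANKL in WT cells, 2 higher and 4 lower, where 62.5% of all genes tested passed, 40.6% higher and 22.0% lower. In *Mir182*ΔM/ΔM cells the same 6 members passed in the same directions, where 56.8% of all genes passed, 30.4% higher and 26.4% lower. The share of members that changed was thus near that of all genes. The median log2 change was −0.33 over the members and 0.19 over all genes in WT, and −0.10 and 0.05 in *Mir182*ΔM/ΔM cells. The replicate block added *Bax* in WT, for 2 higher and 5 lower, and *Bax* and *Bak1* in *Mir182*ΔM/ΔM cells, for 3 higher and 5 lower. Of all genes the block called 81.8% in WT, 52.8% higher and 29.0% lower, and 79.0% in *Mir182*ΔM/ΔM cells, 42.7% higher and 36.3% lower. These 6 members passed under every alternative tried in both genotypes, and in *Mir182*ΔM/ΔM cells also with both WT RANKL libraries left out of the fit. With TMM scaling, which brings the median of all genes from 0.19 to near 0 in WT, 2 members were higher and 6 lower there, *Bax* and *Bbc3* being the added ones, and the split of all genes went from 4741 higher and 2571 lower to 3369 and 3562.

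**Figure D3:**
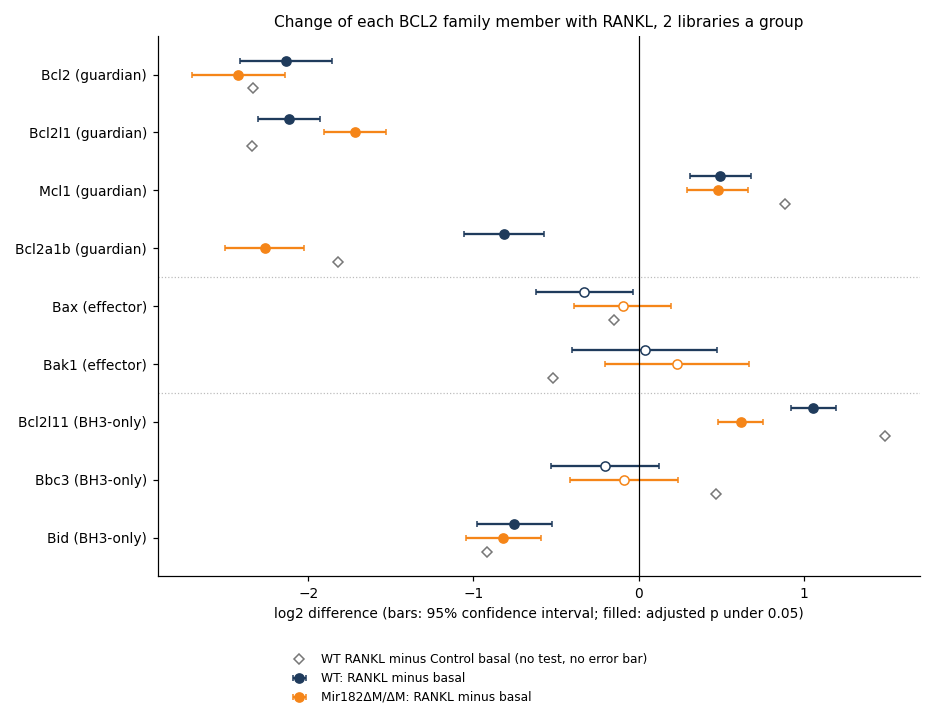
Log2 difference of each member between RANKL and basal libraries in WT (dark blue) and *Mir182*ΔM/ΔM cells (orange), with bars for the 95% confidence interval of limma and filled points for an adjusted p under 0.05. Grey diamonds give WT RANKL minus Control basal, without a test, and lie on the same side of 0 as the WT points except for *Bak1* and *Bbc3*.

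The second comparison asked whether losing miR-182 altered the family before RANKL was given. None of the 9 members passed with limma at baseline, where 3.81% of all genes did, 2.71% higher and 1.10% lower. The same was found with edgeR on the reads recovered from the CPM, and 2 members had an unadjusted p under 0.05. These were *Bcl2*, higher in *Mir182*ΔM/ΔM cells by a log2 difference of 0.40 (95% confidence interval 0.12 to 0.68, limma adjusted p = 0.138), and *Bcl2l1*, higher by 0.33 (0.14 to 0.52, adjusted p = 0.0800). For both genes the libraries given above lay apart between genotypes, and the difference was 0.39 and 0.42 for *Bcl2* and 0.37 and 0.29 for *Bcl2l1* within replicate numbers. In the model with a replicate block, 4 members passed, where 31.2% of all genes did, 18.6% higher and 12.7% lower. They were *Bcl2* (adjusted p = 0.00161) and *Bcl2l1* (adjusted p = 3.4e-06), higher, and *Bax* (log2 difference −0.11, adjusted p = 0.0234) and *Bbc3* (−0.27, adjusted p = 0.0433), lower. Control cells, which like WT cells have an intact *Mir182* locus, differed from WT at baseline by 0.20 for *Bcl2* and 0.22 for *Bcl2l1*, with no overlap between their libraries and no test across the experiments. The other 5 members had log2 differences between −0.10 and 0.04, and the widest of their intervals, that of *Bak1*, ran from −0.39 to 0.48.

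After RANKL, 3 of the 9 members (33.3%) differed between *Mir182*ΔM/ΔM and WT cells, 1 higher and 2 lower, where 45.1% of all genes did, 14.3% higher and 30.9% lower. *Bcl2l1* was higher by a log2 difference of 0.73 (SE 0.08, limma adjusted p = 3.5e-04), or 1.68-fold. *Bcl2a1b* was lower by −1.55 (SE 0.10, adjusted p = 3.3e-05), or 3.65-fold, and *Bcl2l11* by −0.53 (SE 0.06, adjusted p = 3.7e-04), or 1.45-fold. In each of the 3 the libraries of the genotypes lay apart. Within replicate numbers 1 and 2 the log2 differences were 0.72 and 0.73 for *Bcl2l1*, −1.52 and −1.57 for *Bcl2a1b* and −0.55 and −0.51 for *Bcl2l11*. All 3 passed under every alternative tried. This comparison rests on the WT RANKL libraries, which stood apart in *Lyz2* and *Ifi202b*. In these libraries the osteoclast and neutrophil marker sums given above were both higher than in RANKL-treated *Mir182*ΔM/ΔM cells. The part of these differences in the values was not tested. *Bcl2* overlapped between the genotypes after RANKL, with a log2 difference of 0.12 (95% confidence interval −0.16 to 0.40, limma adjusted p = 0.450). *Mcl1*, at −0.01 (−0.19 to 0.18, adjusted p = 0.942), and *Bid*, at −0.04 (−0.27 to 0.18, adjusted p = 0.739), overlapped as well, and with TMM scaling they turned to 0.15 and 0.11. *Bax* and *Bak1* were at 0.13 (adjusted p = 0.448) and 0.24 (adjusted p = 0.331) and passed with the replicate block, with an adjusted p of 0.00302 and 1.4e-05, where 73.2% of all genes did, 23.4% higher and 49.7% lower. *Bbc3* was at −0.16 (limma adjusted p = 0.377), with −0.01 and −0.31 within replicate numbers, and its libraries lay apart by a narrow gap. The median of all genes was −0.14 in this comparison and near 0 with TMM scaling, which moved the split of all genes from 1668 higher and 3607 lower to 2438 and 2362.

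Whether the response to RANKL differed between the genotypes was tested by the genotype by RANKL interaction, which 24.6% of all genes passed, 7.44% higher and 17.1% lower. It includes the WT RANKL libraries, which stood apart in *Lyz2* and *Ifi202b*, so an effect of miR-182 cannot be told apart from that difference. The interaction passed for the same 3 members. The fall of *Bcl2l1* was smaller in *Mir182*ΔM/ΔM cells by a log2 difference of 0.40 (SE 0.11, limma adjusted p = 0.0402), with 0.36 and 0.45 within replicate numbers. The fall of *Bcl2a1b* was larger by −1.45 (SE 0.14, adjusted p = 5.1e-04), with −1.51 and −1.39, and the rise of *Bcl2l11* was smaller by −0.44 (SE 0.08, adjusted p = 0.00809), with −0.46 and −0.42. The first of these lies close to the threshold, since for *Bcl2l1* leaving out 1 library gave an adjusted p between 0.0464 and 0.132 and passed only without the first WT RANKL or the second *Mir182*ΔM/ΔM RANKL library. For *Bcl2l11* the interaction was −0.27 with TMM scaling (adjusted p = 0.0551) and −0.27 with edgeR on recovered reads (adjusted p = 0.0767), neither of which passed. With the replicate block 5 members passed, where 58.9% of all genes did (16.1% higher and 42.8% lower), the added ones being *Bax* (0.23, adjusted p = 4.2e-04) and *Bak1* (0.19, adjusted p = 0.00469). TMM scaling brought the median of all genes from −0.15 to near 0 and the split of all genes from 870 higher and 2005 lower to 1239 and 1274.

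**Figure D4:**
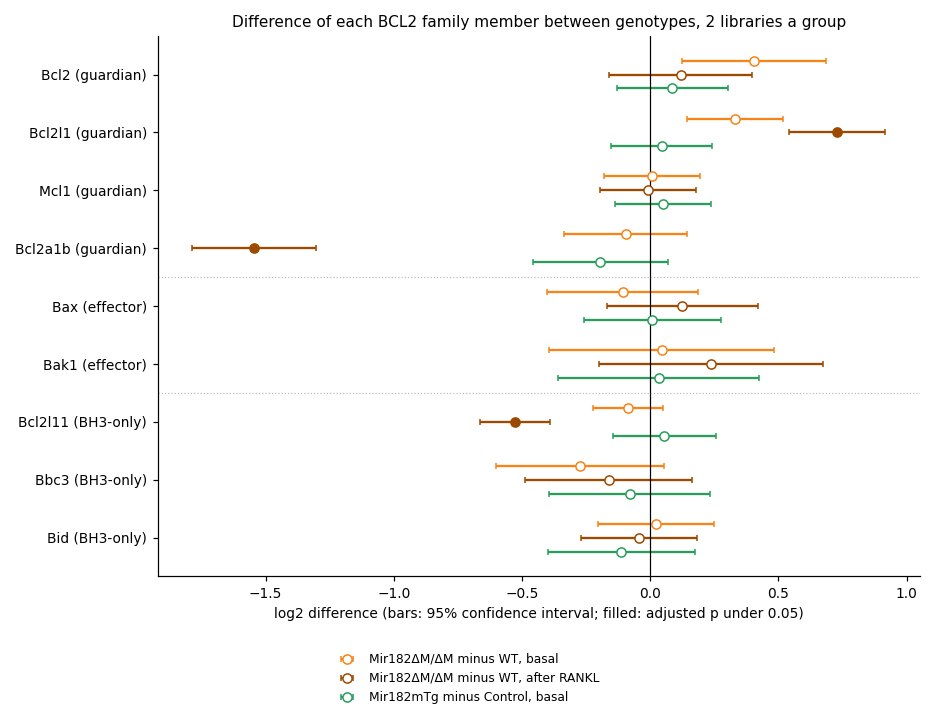
Log2 difference of each member between *Mir182*ΔM/ΔM and WT cells at baseline (orange) and after RANKL (brown) and between *Mir182*mTg and Control cells at baseline (green), with bars for the 95% confidence interval of the fit and filled points for an adjusted p under 0.05. Filled points are those of *Bcl2l1*, *Bcl2a1b* and *Bcl2l11* after RANKL, and all green intervals include 0.

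The last comparison asked whether added miR-182 altered the family in BMMs without RANKL. None of the 9 members passed with edgeR's quasi-likelihood test on the counts, where 0.257% of 12081 genes did (0.0993% higher and 0.157% lower), and none had an unadjusted p under 0.05. DESeq2 and limma called none either. *Bcl2* was at 28.7 and 30.1 CPM in Control and 32.1 and 30.7 CPM in *Mir182*mTg BMMs, a log2 difference of 0.09 (95% confidence interval −0.13 to 0.30). *Bcl2l1* was at 186 and 175 CPM in Control and 195 and 180.0 CPM in *Mir182*mTg BMMs, a difference of 0.04 (−0.15 to 0.24). The libraries of *Bcl2* lay apart by a narrow gap and those of *Bcl2l1* overlapped. *Bcl2l11* was at 57.9 and 61.1 CPM in Control and 62.5 and 61.9 CPM in *Mir182*mTg BMMs, a difference of 0.05 (−0.15 to 0.25). *Mcl1* was at 493 and 455 against 505 and 483 CPM, a difference of 0.05 (−0.14 to 0.24). *Bcl2a1b* was at 36.7 and 35.5 CPM in Control and 34.1 and 29.4 CPM in *Mir182*mTg BMMs, without overlap, a difference of −0.20 (−0.46 to 0.07, edgeR adjusted p = 0.902). With the replicate block it passed as the only member, at −0.19 (edgeR adjusted p = 0.0324), where 15.1% of all genes passed, 6.94% higher and 8.15% lower. The neutrophil marker sum was 41.8 to 43.5 CPM in Control and 82.9 to 85.8 CPM in *Mir182*mTg BMMs, the opposite direction to *Bcl2a1b*. The other 4 members, *Bax*, *Bak1*, *Bbc3* and *Bid*, had log2 differences between −0.11 and 0.03 and overlapped between the groups.

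Set side by side, the 3 members with a seed match shown at the start did not share a direction between *Mir182*ΔM/ΔM and WT cells. In *Mir182*ΔM/ΔM against WT cells at baseline the log2 differences were 0.40 for *Bcl2*, −0.09 for *Bcl2l11* and 0.01 for *Mcl1*, and after RANKL they were 0.12, −0.53 and −0.01. In *Mir182*mTg against Control BMMs they were 0.09, 0.05 and 0.05, in the same direction, with 95% confidence intervals that included 0 for all 3. *Bcl2l1* and *Bcl2a1b*, which differed between genotypes after RANKL, have none of these letters in their annotated 3′ UTRs. Of the values in this paragraph only that of *Bcl2l11* after RANKL passed without the block, and it was lower in *Mir182*ΔM/ΔM cells. That value rests on the WT RANKL libraries, which stood apart in *Lyz2* and *Ifi202b*. An effect of miR-182 cannot be told apart from that difference.

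The balance between BIM and BCL-XL mRNA can be read within each library, which leaves out differences of depth. The RPKM of *Bcl2l11* divided by that of *Bcl2l1* was 0.232 and 0.238 in WT and 0.168 and 0.183 in *Mir182*ΔM/ΔM cells at baseline, and 0.139 and 0.157 in Control and 0.144 and 0.154 in *Mir182*mTg BMMs. After RANKL it was 2.08 and 2.30 in WT and 0.847 and 0.960 in *Mir182*ΔM/ΔM cells. The ratio was thus below 1 in all libraries but those of WT after RANKL, and the 2 RANKL groups lay apart. Where it crosses 1 depends on the gene lengths used for RPKM, and a meaning of that value was not tested. The WT RANKL libraries are those that stood apart in *Lyz2* and *Ifi202b*. *Mcl1* over *Bcl2l1*, on the same scale, went from 3.89 and 3.51 to 22.8 and 23.4 in WT and from 2.98 and 2.92 to 13.4 and 14.1 in *Mir182*ΔM/ΔM cells. Ratios between genes are descriptions without a test, since they were chosen after the levels had been seen.

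Over the 6 conditions the order of group means is as follows. *Bcl2* was lowest in WT and *Mir182*ΔM/ΔM cells after RANKL, which overlapped, and then rose through WT, Control, *Mir182*mTg and *Mir182*ΔM/ΔM at baseline, each apart from the next. *Bcl2l1* followed the same order, with Control, *Mir182*mTg and *Mir182*ΔM/ΔM at baseline overlapping their neighbours and WT and *Mir182*ΔM/ΔM after RANKL apart. *Bcl2l11* ran from Control (59.5 ± 2.27 CPM, SD, n = 2) through *Mir182*mTg (62.2 ± 0.474), *Mir182*ΔM/ΔM (76.1 ± 1.74) and WT (80.9 ± 1.42) at baseline to *Mir182*ΔM/ΔM (117 ± 2.52) and WT (169.7 ± 0.0803) after RANKL, each apart from the next. *Mcl1* had 3 levels, with Control and *Mir182*mTg lowest, WT and *Mir182*ΔM/ΔM at baseline between and both RANKL groups highest, and the groups of each level overlapped. *Bid* had 2 levels, both RANKL groups below all 4 basal groups. In *Bax* and *Bak1* every neighbour in the order overlapped, and *Bbc3* ran from 10.3 ± 0.918 CPM in *Mir182*mTg to 17.8 ± 3.19 CPM in WT at baseline.

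Genes with the most similar profiles were sought for the 3 members of widest range, *Bcl2a1b*, *Bcl2* and *Bcl2l1*, by the root mean square difference of centred log2(CPM + 1) over the 12 libraries. The nearest to *Bcl2a1b* were *Rab27a*, a small GTPase of vesicle transport, at 0.16, *Cd300lg* at 0.23 and *Rhoh* at 0.28, among 1657 candidates. The nearest to *Bcl2* were 1810011H11Rik at 0.19, *Lrp8* at 0.19 and *Nek6* at 0.21, among 2807. The nearest to *Bcl2l1* were *Milr1* at 0.12, *Hip1* at 0.14 and *Nek6* at 0.17, among 2994. The profiles of the members themselves ranged over 3.36, 2.54 and 2.45 log2 units. The libraries behind these distances are shared by all genes, and the distances are a description.

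**Figure D5:**
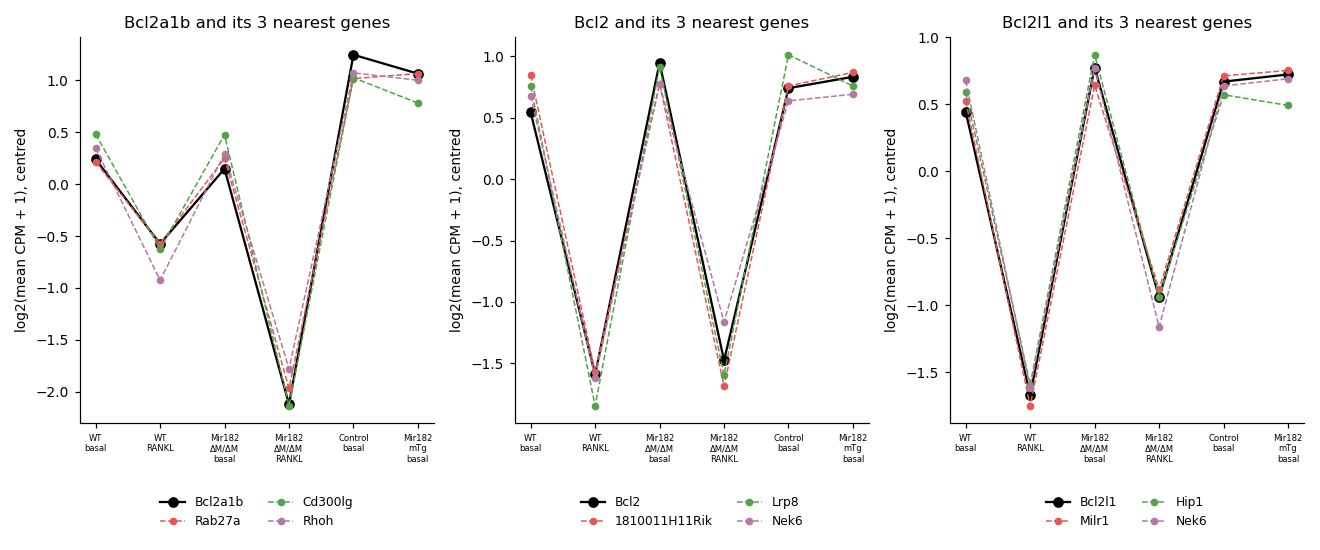
Centred log2(mean CPM + 1) of *Bcl2a1b*, *Bcl2* and *Bcl2l1* (black) over the 6 conditions, each with the 3 genes of nearest profile (dashed). *Bcl2a1b* and its neighbours are lowest in *Mir182*ΔM/ΔM cells after RANKL and highest in the gain of function libraries, while *Bcl2* and *Bcl2l1* are low in both RANKL groups.

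The rest of the BCL2 family was followed in a list of 17 further genes, of which 10 passed the filter on low values in the loss of function experiment. With RANKL 5 rose and 1 fell in WT, where 62.5% of all genes passed, and 5 rose and 2 fell in *Mir182*ΔM/ΔM cells, where 56.8% did, with a median log2 change of 0.21 and 0.09 against 0.19 and 0.05 over all genes. *Bmf*, a BH3-only gene linked to the cytoskeleton, was at 8.29 and 8.62 CPM in WT at baseline, 55.4 and 61.0 CPM in WT after RANKL, 4.03 and 4.44 CPM in *Mir182*ΔM/ΔM at baseline and 8.97 and 10.3 CPM in *Mir182*ΔM/ΔM after RANKL. It rose by a log2 change of 2.65 (SE 0.10, limma adjusted p = 1.3e-06) in WT and 1.02 (SE 0.10, adjusted p = 1.5e-04) in *Mir182*ΔM/ΔM cells, and the interaction was −1.63 (SE 0.15, adjusted p = 3.4e-04). Between the genotypes it was lower in *Mir182*ΔM/ΔM cells by −0.85 (adjusted p = 0.00742) at baseline and −2.48 (adjusted p = 5.4e-06) after RANKL. The baseline call was lost when the second WT or the first *Mir182*ΔM/ΔM basal library was left out, with an adjusted p of at most 0.0715. *Bmf* thus differed in the same direction as *Bcl2l11* after RANKL. *Pmaip1*, the gene of the BH3-only protein NOXA, rose from 7.74 ± 0.907 to 50.6 ± 3.64 CPM in WT (SD, n = 2) and to 52.6 ± 2.60 CPM in *Mir182*ΔM/ΔM cells, from 7.71 ± 0.663 CPM, log2 changes of 2.57 and 2.62. In Control at baseline, against which the WT RANKL libraries can also be set, *Bmf* was at 4.99 ± 0.373 and *Pmaip1* at 7.74 ± 0.205 CPM. *Bcl2l15* reached 1.43 and 1.93 CPM after RANKL in WT and *Mir182*ΔM/ΔM cells, from 0 to 0.0917 CPM in the basal libraries of that experiment. *Bnip3l*, a mitophagy receptor, had 79.6 ± 3.83 CPM for WT and 45.6 ± 1.20 CPM for *Mir182*ΔM/ΔM after RANKL, with a log2 difference of −0.79 (limma adjusted p = 1.6e-04), and an interaction of −0.64 (adjusted p = 0.00435). Control cells at baseline held 50.6 ± 1.39 CPM of *Bnip3l*. *Bad*, lower by −0.45 after RANKL (limma adjusted p = 0.0241), did not pass with TMM scaling (adjusted p = 0.107), and it passed under 11 of 16 alternatives, with an adjusted p of up to 0.128 when 1 library was left out. In *Mir182*ΔM/ΔM against WT cells 1 gene of the list was lower at baseline, 3 after RANKL and 2 in the interaction, where 1.10%, 30.9% and 17.1% of all genes were lower. These counts became 3, 5 and 3 with the replicate block, where 12.7%, 49.7% and 42.8% of all genes were lower. With added miR-182 none of 11 passed with edgeR, with DESeq2 or with the block, and 0 had an unadjusted p under 0.05.

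Downstream of mitochondria, a list of 20 genes held caspases, their inhibitors (IAPs) and death receptor parts, all of which passed the filter. With RANKL 10 rose and 2 fell in WT, and 10 rose and 3 fell in *Mir182*ΔM/ΔM cells, with a median log2 change of 0.27 and 0.30. Thus 12 and 13 of the 20 passed, where 62.5% and 56.8% of all genes did. *Birc3*, an IAP and ubiquitin ligase of the TNF receptor pathway, rose from 50.2 ± 0.931 to 289 ± 1.30 CPM in WT and from 34.9 ± 0.186 to 238 ± 2.84 CPM in *Mir182*ΔM/ΔM cells, log2 changes of 2.50 and 2.73. *Birc2*, its close relative, rose from 22.9 ± 0.761 to 90.4 ± 2.26 CPM in WT and from 23.2 ± 0.0456 to 47.4 ± 3.99 CPM in *Mir182*ΔM/ΔM cells, with an interaction of −0.94 (SE 0.11, limma adjusted p = 0.00132). Control cells at baseline held 30.9 ± 1.19 CPM of *Birc3* and 20.6 ± 0.364 CPM of *Birc2*. *Htra2*, a mitochondrial protease, rose by 1.29 in WT, and *Trp53* and *Cycs* (cytochrome c) rose by 1.17 and 1.16 in *Mir182*ΔM/ΔM cells. These rises were not limited to 1 genotype. *Trp53* and *Cycs* also rose in WT (limma adjusted p = 2.4e-05 and 3.9e-05), and *Htra2* also rose in *Mir182*ΔM/ΔM cells (limma adjusted p = 0.00375). At baseline only *Birc3* passed between the genotypes, where 3.81% of all genes did, lower by −0.51 (limma adjusted p = 0.00501), which was lost without either *Mir182*ΔM/ΔM basal library (adjusted p at most 0.0565) and with only the 4 basal libraries (adjusted p = 0.0772). After RANKL 2 of the 20 were higher and 6 lower in *Mir182*ΔM/ΔM cells, where 14.3% and 30.9% of all genes were. The lower genes were led by *Birc2* (−0.92, limma adjusted p = 1.3e-04) and *Casp6*, an executioner caspase (−0.75, adjusted p = 8.9e-04). In the interaction 1 was higher, the death receptor gene *Fas* (0.63, limma adjusted p = 0.00910), and 2 were lower, *Birc2* among them, where 24.6% of all genes passed. *Fas* went from 15.6 and 15.5 to 17.2 and 15.7 CPM with RANKL in WT. The *Mir182*ΔM/ΔM libraries went from 12.1 and 11.9 to 20.8 and 19.6 CPM. Control cells at baseline held only 6.67 and 6.42 CPM of *Fas*. Set against Control, the WT RANKL libraries thus rose more than *Mir182*ΔM/ΔM cells did, without a test. The larger *Fas* response in *Mir182*ΔM/ΔM cells therefore depends on the WT baseline. With added miR-182 none passed with edgeR or DESeq2, and 2 had an unadjusted p under 0.05. The replicate block gave 1 higher and 3 lower at baseline, 5 and 7 after RANKL, 5 and 5 in the interaction and 3 and 2 with added miR-182. Of all genes the block called 18.6% higher and 12.7% lower at baseline and 23.4% and 49.7% after RANKL. In the interaction these shares were 16.1% and 42.8%, and with added miR-182 they were 6.94% and 8.15%.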

How the data were processed

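The 12 libraries were grouped by genotype and RANKL treatment from their labels. According to the protocols, libraries were made from poly-A selected RNA with a TruSeq RNA kit, which does not mark strand, although the labels give total RNA for replicate 2. Reads were aligned to mm10 (GRCm38) with TopHat or HISAT2. The loss of function files (8) hold CPM values that the authors computed with edgeR by dividing each count by the sum over all genes. Those of gain of function (4) hold the raw read counts per gene that the authors took from HTSeq, and these were scaled here to a sum of 1000000 for display. RPKM values in the deposited files exist for replicate 1 only and equal CPM per fixed gene length, so for replicate 2 they were computed here with the same lengths. No column belonged to another sample, and 27 gene names that had turned into dates were left out where a gene had to be named.

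The test for CPM was that of limma (lmFit, then eBayes using a mean trend; version 3.58.1 in R version 4.3.3). It took log2(CPM + 1) as input and 11691 genes that reached 1 CPM in 2 or more of 8 samples. Counts were tested with the quasi-likelihood test of edgeR (version 4.0.16, TMM, filterByExpr) on 12081 genes. Adjusted p-values are those of Benjamini and Hochberg, taken over all genes tested. Fold changes printed beside log2 differences are ratios of mean CPM, and within-number differences are on log2(CPM + 1). All 9 members passed the filters on low values in both experiments. The CPM values were whole multiples of the value of 1 read, within 0.05 for 100% of values. edgeR on these recovered reads (12579 genes) called 3536 genes higher and 3679 lower with RANKL in WT, 3439 and 3474 in *Mir182*ΔM/ΔM cells, 273 and 135 between genotypes at baseline, 2481 and 2448 after RANKL and 1130 and 1110 in the interaction. Depth was 24951280 to 33050619 reads on genes, and replicates differed by more than counting noise, so each counted as 1 sample. Same-numbered samples deviated together, with a correlation of 0.690 to 0.754 over pairs of loss of function groups. In the gain of function pair the correlation was 0.744. The replicate numbers were therefore taken to pair the samples. The main fits held no term for this pairing, which entered the tests only as the replicate block among the alternatives.

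Members, gene lists, markers and the sample check genes were chosen with earlier results of these data known. The text names all members, the 3 genes with the largest change among those called in each list and comparison, the copies of *Bcl2a1b*, the 3 nearest profiles of the 3 members of widest range, and *Lyz2* and *Ifi202b* as sample checks. A gene that this rule names is not reported here. *Mir182*, *Rn45s* and the neutrophil markers were named after their values had been seen. The nearest genes reached 1 CPM in 2 or more of 12 libraries and a range of at least 0.5 times that of the member. Alternatives were a pseudocount of 0.1, no filter, TMM factors, the replicate number as a block with and without them, edgeR on recovered reads, DESeq2 (version 1.42.0) and its size factors and limma for the counts, only the 4 samples of a contrast, and each sample left out. The fit without both WT RANKL libraries was added after the data were seen. Methods were tested on simulated data that held no replicate effect, so this test does not cover the replicate differences seen here.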

Additional observations from a re-analysis of the deposited data

Results flagged for a closer look

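The response to RANKL differed between *Mir182*ΔM/ΔM and WT cells for 3 of the 9 members, by the genotype by RANKL interaction of limma with Benjamini-Hochberg adjustment, which 24.6% of 11691 genes passed. For *Bcl2l1* the response in *Mir182*ΔM/ΔM cells minus that in WT cells was 0.40 on the log2 scale, from a change of −1.72 against −2.12, and this call was lost in 6 of 8 fits that left out 1 library, with an adjusted p of up to 0.132. For *Bcl2a1b* the difference of responses was −1.45, from −2.26 against −0.81. For *Bcl2l11* it was −0.44, from 0.62 against 1.06, and it did not pass with TMM factors (adjusted p = 0.0551) or edgeR on recovered reads (adjusted p = 0.0767). All 3 differences use the WT RANKL libraries, which stood apart in *Lyz2* and *Ifi202b*, and the part of that in the differences was not tested. With the WT RANKL libraries set against Control at baseline instead of WT at baseline, their changes were −2.34, −1.82 and 1.50, without a test.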

How the results depend on the processing

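With 2 libraries a group, only differences larger than the spread between them could be called, and *Bcl2a1b* after RANKL in *Mir182*ΔM/ΔM cells rests on under 100 reads a library. The counts of members called with RANKL (6 in each genotype) stayed within 1.5 times of the reported ones under every alternative. Leaving out 1 library gave 6 to 7 members in WT, 6 to 6 in *Mir182*ΔM/ΔM cells, 0 to 0 at baseline, 3 to 3 after RANKL, 2 to 3 in the interaction and 0 to 0 with added miR-182.

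The replicate block moved the counts of members called at baseline to 4 (5 with TMM factors, 4 with edgeR on recovered reads), after RANKL to 5 (8 and 7), in the interaction to 5 (6 and 6) and with added miR-182 to 1. In limma without TMM factors it changed no call of a member other than those given in the report. With TMM factors it also called *Bcl2l11* at baseline and *Bid* after RANKL, and with TMM factors and with edgeR also *Bak1* with RANKL in WT, *Bcl2* after RANKL and *Mcl1* after RANKL and in the interaction. Over all genes the block gave 3651 calls at baseline against 446, 8555 after RANKL against 5275, 6889 in the interaction against 2875 and 1822 with added miR-182 against 31. The baseline count of all genes also fell to 97 to 293 when a library was left out, to 102 with only the 4 basal libraries and to 291 without both WT RANKL libraries, and that with added miR-182 was 124 with DESeq2, 141 without a filter and 55 to 166 when a library was left out. In the other BCL2 family list 11 genes were called with RANKL in WT by edgeR on recovered reads against 6.

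TMM factors, TMM factors with the block, edgeR on recovered reads, and edgeR with the block turned these log2 differences, in that order. *Bak1* with RANKL in WT became −0.17, −0.17, −0.18 and −0.18. *Mcl1* became −0.0083, −0.0083, −0.0100 and −0.0098 at baseline, 0.15, 0.15, 0.14 and 0.15 after RANKL and 0.15 in all 4 in the interaction. *Bid* became 0.11, 0.11, 0.11 and 0.11 after RANKL and 0.10 in all 4 in the interaction. These settings bring the median of all genes to near 0.

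Leaving out 1 library turned the sign of members that had not passed, over these ranges. With RANKL, *Bak1* in WT ran from −0.18 to 0.25, and in *Mir182*ΔM/ΔM cells *Bax* from −0.21 to 0.016 and *Bbc3* from −0.21 to 0.036. At baseline *Mcl1* ran from −0.066 to 0.079, *Bcl2a1b* from −0.21 to 0.014, *Bax* from −0.22 to 0.0055, *Bak1* from −0.17 to 0.26 and *Bid* from −0.051 to 0.097. After RANKL *Bcl2* ran from −0.0030 to 0.24, *Mcl1* from −0.066 to 0.049, *Bax* from −0.0011 to 0.25 and *Bid* from −0.14 to 0.049. In the interaction *Mcl1* ran from −0.088 to 0.057, *Bak1* from −0.019 to 0.41, *Bbc3* from −0.062 to 0.29 and *Bid* from −0.16 to 0.026. With added miR-182 *Bcl2l1* ran from −0.018 to 0.10, *Mcl1* from −0.0014 to 0.10, *Bax* from −0.097 to 0.12, *Bak1* from −0.18 to 0.21, *Bbc3* from −0.17 to 0.0050 and *Bid* from −0.23 to 0.013. Other members kept their direction. The cause of these changes was not tested.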
